A study of Mus musculus with 12 samples.

Results

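The Hox genes of the 4 mouse clusters were described in LSK cells. These cells carry Sca-1 and Kit but no lineage markers, and blood stem cells and early progenitors are found among them. Every probe that was not a control and whose gene name was Hoxa, Hoxb, Hoxc or Hoxd followed by a number was taken. This gave 44 of 39429 probes, for 39 genes: 11 in HoxA, 10 in HoxB, 9 in HoxC and 9 in HoxD. Of these genes, 25 were among the 23900 genes tested. Hox genes encode homeodomain transcription factors that lie side by side in clusters, numbered by paralogue group along each cluster, and give cells of the embryo their position along the body axis. In the blood system, HoxA and HoxB genes are known for activity in stem and progenitor cells and for loss of that activity on differentiation. Their proteins bind DNA together with Pbx and Meis cofactors, MLL complexes keep their chromatin active, and Polycomb complexes silence it.

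All LSK cells were flow sorted after red cell depletion and enrichment for Kit from male DBA2/J mice, and each of the 4 groups had 3 one-colour arrays. The marrow group came from bone marrow of mice that received PBS. The other groups came from peripheral blood of mice treated with G-CSF for 5 days (9 injections), with AMD3100 for 1 hour, or with CWHM-823 plus tGro-b, for which no time was given. G-CSF is the granulocyte growth factor, AMD3100 a CXCR4 antagonist, CWHM-823 an inhibitor of the integrin VLA-4 and tGro-b a truncated agonist of CXCR2. No blood from untreated mice was on the arrays, so the treatment and the move from marrow to blood cannot be told apart. Nothing in the labels tells whether replicate arrays stand for separate mice, and p-values measure the spread between these samples, which may be technical.

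The signal at the 75th percentile of the array ran from 1146 to 2724 intensity units and was lowest on the AMD3100 arrays (1146 to 1581). Between 70.8 and 83.4% of all probes were well above background on an array, and between 54.5 and 77.3% of the Hox probes. Kit transcripts were above background on all 12 arrays, and all 11 stem and LSK marker genes were among the genes tested. Neutrophil transcripts set marrow array 3 apart. The summed level of the 8 tested of 10 neutrophil genes was 29.99 times the 75th percentile signal on it. The sum was 2.86 and 2.96 on marrow arrays 2 and 1, and between 2.02 and 4.33 in blood. The summed level of the 7 tested of 8 B cell genes was 4.20 to 4.91 in marrow, 4.49 to 4.86 after G-CSF, 7.32 to 8.69 after AMD3100 and 6.88 to 10.7 after CWHM-823+tGro-b. The 6.88 is of array 3 of that group, where Cd79a had no usable spot and was left out of the sum. For the 5 tested of 8 T cell genes the sums were 4.59 to 6.71, 3.19 to 6.52, 8.40 to 11.4 and 5.20 to 8.23 in the same order. Against marrow, the B cell gene Cd79a was higher after AMD3100 and after CWHM-823+tGro-b (1.98 and 2.84), Vpreb1 after CWHM-823+tGro-b (2.18) and the T cell gene Tcf7 after AMD3100 (2.31). Over all genes 0.515% passed as higher after AMD3100 and 0.343% after CWHM-823+tGro-b. Of 8 tested erythroid genes, 3 were lower after G-CSF, where 0.556% of all genes were. These were Klf1 (-2.24), Car1 (-2.79) and Rhag (at least 3.71-fold, with 0 G-CSF arrays above background). Rhag entered the test through the marrow arrays alone, where it was high, and that entry favours a call as lower in blood. Hba-a1 was higher after G-CSF (3.65) and CWHM-823+tGro-b (4.46), while the medians of the 8 tested erythroid genes were -1.04 and -0.08. Over all genes 1.18% and 0.343% passed as higher in these 2 comparisons. The megakaryocyte gene Pf4 was lower after G-CSF (-2.31). Between G-CSF and AMD3100 blood, Cd79a, Pax5, Ebf1, Vpreb1, Igll1, Cd3e and Tcf7 were lower after G-CSF and Hba-a1 and the stromal gene Pdgfrb higher. In that comparison 18.4% of all genes passed as lower and 12.6% as higher. Hba-a1 and Pdgfrb were each the 1 member of their list that passed as higher. The median difference was -0.59 for the 8 tested erythroid genes and -0.58 for the 10 tested stromal and endothelial genes, against -0.37 for all genes. Cd79a, Igll1, Pax5 and Vpreb1 were also lower after G-CSF than after CWHM-823+tGro-b, where 60 of 23900 genes passed as lower. Hba-a1 was higher after CWHM-823+tGro-b than after AMD3100, where 28 of 23900 passed as higher. For the mean of the blood groups, Hba-a1 was higher and Hlf lower than marrow, where 133 of 23900 genes passed as higher and 51 as lower. The median of the 8 tested erythroid genes there was -0.84, opposite in sign to Hba-a1. The part of these cells in the results was not tested. Levels below are log2 signal minus the array's 75th percentile, so a level of 0 equals the signal at that percentile. Levels of different genes come from different probes and were not set against each other.

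Each array probe is a single stretch of 60 bases. Some Hox probes lie in the homeobox, the part that all family members share, and 2 of these are shown to make the degree of likeness visible. Capitals mark 15 bases within the code for the DNA-recognition helix, all read 5′ to 3′ from the scanner output.
Hoxc11 (mm9 chr15:102787022-102787081, plus strand): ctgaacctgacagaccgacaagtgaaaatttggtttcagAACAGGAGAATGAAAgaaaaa
Hoxc12 (chr15:102768889-102768948, plus strand): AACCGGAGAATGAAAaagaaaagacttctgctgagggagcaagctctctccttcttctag
The capitals of Hoxc11 and Hoxc12 differ at 1 of 15 bases. The remaining bases differ in content and in place. Hoxc11 was above background on 0 arrays and Hoxc12 on 11 of 12. For 1 Hox probe, of Hoxb3, the scanner output also lists an accession of Hoxd3. Whether Hoxd3 transcripts add to the signal at that Hoxb3 probe was not tested.

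A gene counted as above background in a group when at least 1 of its probes was well above background on all 3 arrays. In marrow LSK cells 22 of 39 Hox genes met this, after G-CSF 18, after AMD3100 19 and after CWHM-823+tGro-b 19. HoxA was the fullest cluster in each group, with 9 of 11 genes in marrow, 8 after G-CSF, 8 after AMD3100 and 9 after CWHM-823+tGro-b. HoxB gave 5 of 10 genes in marrow and 4 in each blood group, and HoxC 5 of 9 in marrow and 4, 6 and 4 in the blood groups in the same order. HoxD gave 3 of 9 in marrow, 2 after G-CSF, 1 after AMD3100 and 2 after CWHM-823+tGro-b. By position, marrow cells had 4 of 8 anterior genes (paralogues 1 to 3), 8 of 15 central genes (4 to 8) and 10 of 16 posterior genes (9 to 13) above background.

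The genes above background on all 12 arrays were 16 in number: Hoxa2, Hoxa3, Hoxa5, Hoxa6, Hoxa7, Hoxa9, Hoxa10, Hoxa13, Hoxb3, Hoxb4, Hoxb5, Hoxb9, Hoxc4, Hoxc5, Hoxc10 and Hoxd9. A further 9 were above background on all 3 arrays of some groups only. Among these, Hoxa4, Hoxb2 and Hoxd13 reached this in marrow alone, Hoxd3 in CWHM-823+tGro-b blood alone and Hoxc6 in AMD3100 blood alone. Hoxd11 reached it in marrow and G-CSF blood, Hoxc9 in all groups but CWHM-823+tGro-b and Hoxc12 in all groups but G-CSF. On scattered arrays, never all 3 of a group, stood Hoxb6, Hoxb8, Hoxc8, Hoxd1, Hoxd4, Hoxd10 and Hoxd12. Above background on 0 of 12 arrays were 7 genes: Hoxa11, Hoxb1, Hoxb7, Hoxb13, Hoxc11, Hoxc13 and Hoxd8. A gene not above background has no measured level here, which does not show that its transcript is absent.

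**Figure D1:**
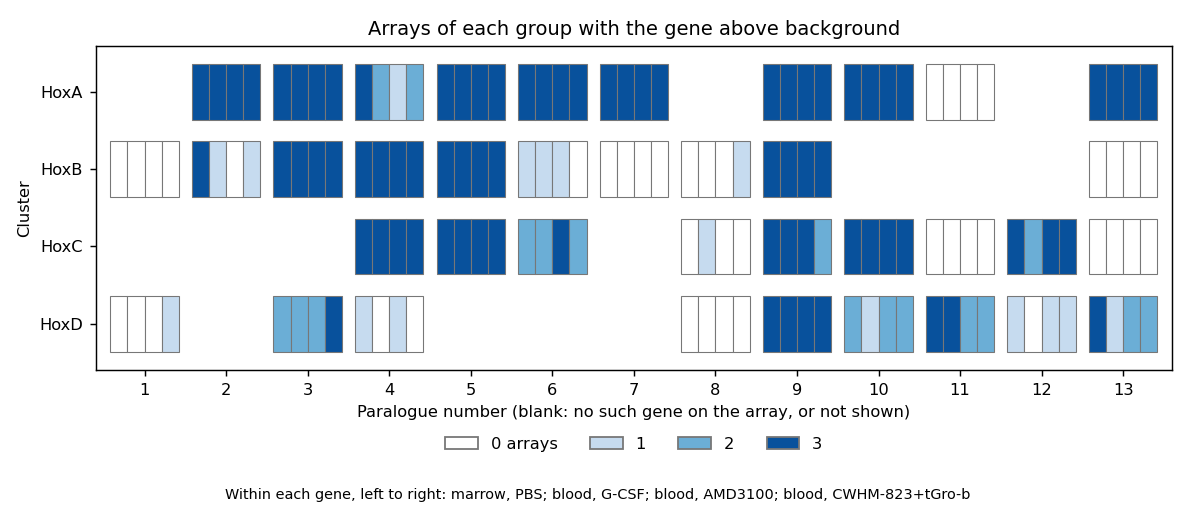
Number of arrays, of 3 per group, on which each Hox gene was well above background, for 38 genes, by cluster (rows) and paralogue number (columns); the 4 strips of a gene are marrow, G-CSF, AMD3100 and CWHM-823+tGro-b from left to right. HoxA has 8 genes dark in all 4 strips, HoxB 4, HoxC 3 and HoxD 1, and 7 genes are white in all strips.

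The background flag is a low bar on these arrays. Olfactory receptors, which are known from the nose, served as a yardstick: 40.4 to 66.4% of their 1169 probes were also well above background. Against the 95th percentile of the olfactory receptor probes of the same array, 5 Hox genes stood higher on all 3 marrow arrays, 3 on all G-CSF arrays, 2 on all AMD3100 arrays and 3 on all CWHM-823+tGro-b arrays. Hoxa9, a stem and progenitor cell factor known from myeloid leukaemia, and Hoxa13, known from limb and genital development, were over this level on all 12 arrays. Both Hoxa9 probes were over it on all 12, whereas the second Hoxa13 probe was over it on 0, so Hoxa13 rests on 1 of its 2 probes. Next came Hoxc4 on 10 arrays, Hoxb3 on 8, and Hoxa7 and Hoxa10 on 7 each. At the other end, 27 of the 39 genes were over it on 0 arrays, among them Hoxa2, Hoxa6, Hoxb5 and Hoxc10, which carried the background flag on all 12. Thus 2 Hox genes cleared both bars on all 12 arrays, and the other 14 genes with the flag on all 12 arrays did not clear the higher one on all of them.

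Hoxa9 had levels of 2.17, 1.78 and 1.63 on the marrow arrays, 1.08, 0.80 and 1.12 after G-CSF, 1.101, 0.99 and 1.21 after AMD3100 and 1.43, 0.95 and 1.16 after CWHM-823+tGro-b. All 9 blood arrays stood below the lowest marrow array. The second Hoxa9 probe gave 1.85, 1.32 and 1.33 on the marrow arrays, 1.19, 0.89 and 1.17 after G-CSF, 0.68, 0.65 and 1.23 after AMD3100 and 1.29, 0.88 and 0.67 after CWHM-823+tGro-b, and here the blood arrays also stood below all marrow arrays. For Hoxa13 the levels were 0.94, 2.01 and 1.19 on the marrow arrays, 0.09, 1.39 and 0.75 after G-CSF, 1.25, 1.88 and 1.58 after AMD3100 and 0.83, 1.50 and 1.75 after CWHM-823+tGro-b. The groups of Hoxa13 overlapped. A second Hoxa13 probe stood higher after AMD3100 (-1.89, -1.46 and -1.30) than in marrow (-3.47, -2.40 and -2.61), with a difference of 1.28 ± 0.48 (adjusted p over all probes 0.223), where the first gave 0.19 ± 0.39. Between G-CSF and AMD3100 blood the second probe gave -1.51 ± 0.48 and passed over all probes (adjusted p = 0.041), where the first gave -0.83 ± 0.40 (0.124).

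The comparisons with marrow ask how the Hox genes of mobilized LSK cells differ from those of resident ones. All of them share the same 3 marrow arrays, so their values are given side by side. Among HoxA genes, Hoxa4 passed after each treatment and Hoxa3 after AMD3100, and both were lower in blood. After G-CSF 1 Hox gene of 25 tested passed, against 0.556% of all genes tested that passed as lower. After AMD3100 2 of 25 passed as lower, against 0.908%, and after CWHM-823+tGro-b 1 of 25, against 0.0377%. Each count includes Hoxa4, which entered the test through the marrow arrays alone, where it was high. That entry favours a call as lower in blood. Among the 16 Hox genes above background on all 12 arrays, 0 passed as lower after G-CSF, 1 after AMD3100 and 0 after CWHM-823+tGro-b. No tested Hox gene passed as higher than marrow in any group, where 1.18% of all genes did after G-CSF, 0.515% after AMD3100 and 0.343% after CWHM-823+tGro-b. In sorted bulk cells, fewer cells with a transcript and less transcript per cell cannot be told apart.

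Hoxa4 is a central HoxA gene. Its probe (chr6:52140287-52140346 in mm9, minus strand) begins with these bases, shown to identify the single probe on which the result rests.
Hoxa4: atataatctagagacctggatcagtttctc
Hoxa4 levels were -1.02, -1.72 and -1.87 on the marrow arrays, -4.10, -3.28 and -4.50 after G-CSF, -3.74, -3.68 and -4.02 after AMD3100 and -3.44 and -4.03 after CWHM-823+tGro-b; array 3 of the last group had no usable spot. The marrow arrays lay above every blood array with a wide gap. The fitted log2 difference was -2.42 ± 0.35 after G-CSF (adjusted p = 0.0058), -2.28 ± 0.35 after AMD3100 (adjusted p = 0.014) and -2.19 ± 0.39 after CWHM-823+tGro-b (adjusted p = 0.0484, 2 arrays). Hoxa4 was above background on 3 marrow arrays, 2 after G-CSF, 1 after AMD3100 and 2 of the 2 measured after CWHM-823+tGro-b, so the blood levels lie at the edge of detection and the size of the differences is uncertain. It entered the test through the marrow arrays alone, where it was high. The call after G-CSF held when any 1 array was left out and was lost in the authors' table (-1.98, adjusted p = 0.31). The call after AMD3100 was lost there (adjusted p = 0.123), with normexp background correction (-1.21, adjusted p = 0.0725) and without marrow array 1 (adjusted p = 0.0741), marrow array 2 (0.0512) or AMD3100 array 1 (0.0549), and that after CWHM-823+tGro-b in 10 of 12 fits that left out 1 array (adjusted p = 0.0236 to 0.271 over the 12).

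Hoxa3, an anterior HoxA gene, had levels of -0.01, -0.63 and -1.59 on the marrow arrays, -2.21, -2.15 and -2.03 after G-CSF, -2.17, -2.26 and -2.41 after AMD3100 and -1.89, -2.23 and -1.93 after CWHM-823+tGro-b. All 9 blood arrays lay below all marrow arrays and close together, while the marrow arrays were spread over more than a log2 unit. The difference was -1.54 ± 0.33 after AMD3100, a fall of 2.9-fold (adjusted p = 0.0478). After G-CSF it was -1.39 ± 0.33 (adjusted p = 0.0626, 0.0219 with the slide as a block) and after CWHM-823+tGro-b -1.28 ± 0.33 (adjusted p = 0.22). The call after AMD3100 was lost when any 1 array other than marrow array 3 was left out (adjusted p = 0.0585 to 0.181). Against the mean of the 3 blood groups, Hoxa4 (-2.30 ± 0.29, adjusted p = 0.00348) and Hoxa3 (-1.40 ± 0.27, adjusted p = 0.0401) were the 2 of 25 members that passed, against 0.213% of all genes as lower. Here too Hoxa4 had entered through the marrow arrays alone. Of the 16 Hox genes above background on all 12 arrays, 1 passed. The Hoxa3 call in this comparison was also lost when any 1 array other than marrow array 3 was left out.

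The Hoxa3 probe overlaps the probe of Hoxaas2, a non-coding gene on the opposite strand, by 40 bases with 0 mismatches (chr6:52119107-52119146 in mm9). The first 30 bases of the overlap along the chromosome, read from each probe, are reverse complements of each other.
Hoxa3: TTTTGAGAGTTTTACATTCCTTGCTGCTCA
Hoxaas2: TGAGCAGCAAGGAATGTAAAACTCTCAAAA
The levels at the Hoxaas2 probe were -0.39, -0.66 and -1.53 on the marrow arrays, -2.27, -1.62 and -1.75 after G-CSF, -2.07, -1.90 and -1.72 after AMD3100 and -1.71, -2.22 and -1.73 after CWHM-823+tGro-b. They stood lower in blood as at the Hoxa3 probe, with differences of -1.02, -1.04 and -1.03 in the same order of treatments (adjusted p = 0.127, 0.121 and 0.403), and did not pass. The labels do not say that amplification and labelling kept the strand, so signal from Hoxa3 and from its antisense neighbour cannot be told apart at these probes.

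**Figure D2:**
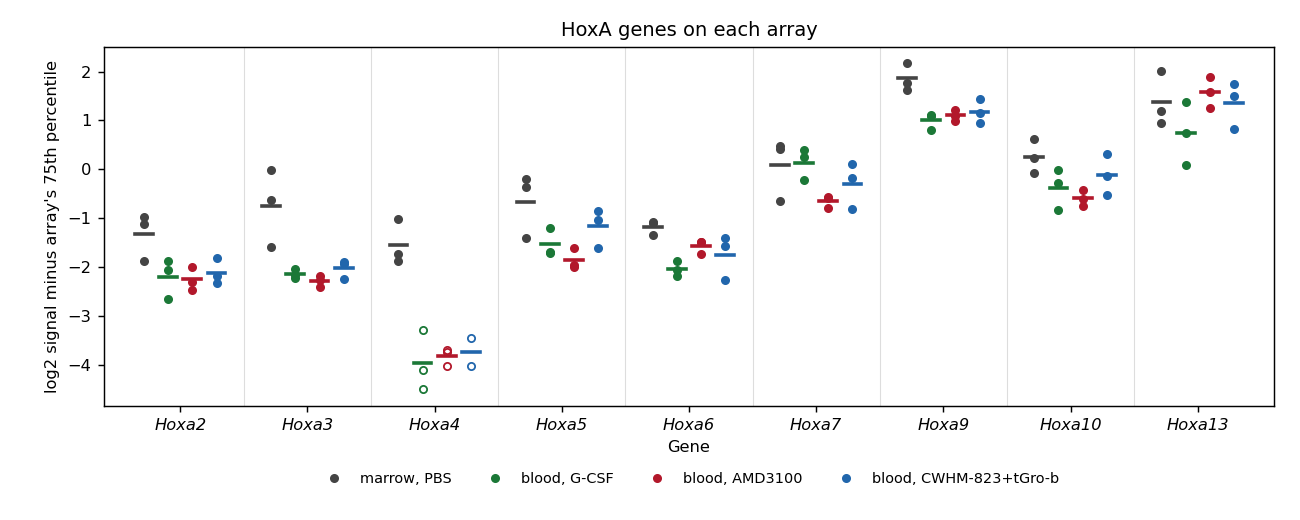
Level (log2 signal minus the array's 75th percentile) of 9 HoxA genes on each array, coloured by group, with a bar at the group mean; open circles mark groups in which not all 3 arrays were above background. The Hoxa4 and Hoxa3 points of the 3 blood groups lie below all marrow points, and the Hoxa13 points of all groups overlap.

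The other HoxA genes mostly stood lower in blood without passing the test. Hoxa2, the most anterior of the HoxA genes seen on all arrays, had levels of -0.98, -1.11 and -1.87 on the marrow arrays, -2.06, -2.66 and -1.88 after G-CSF, -2.30, -2.46 and -1.997 after AMD3100 and -2.32, -2.19 and -1.82 after CWHM-823+tGro-b. The difference was -0.88 ± 0.30 after G-CSF (adjusted p = 0.165), with no overlap with marrow, though the nearest arrays almost touched. The central gene Hoxa5 had -0.21, -0.36 and -1.41 on the marrow arrays, -1.21, -1.70 and -1.69 after G-CSF, -1.96, -1.60 and -2.001 after AMD3100 and -0.86, -1.04 and -1.60 after CWHM-823+tGro-b. After AMD3100 its groups did not overlap (-1.19 ± 0.34, adjusted p = 0.102, 0.0195 with the block). Hoxa6 levels were -1.09, -1.34 and -1.10 on the marrow arrays, -2.06, -1.86 and -2.17 after G-CSF, -1.49, -1.73 and -1.48 after AMD3100 and -1.41, -2.27 and -1.56 after CWHM-823+tGro-b. Every blood array lay below every marrow array, yet the differences were small, from -0.85 after G-CSF (adjusted p = 0.118, 0.0289 with the block) to -0.39 after AMD3100 (adjusted p = 0.428).

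Hoxa7, also central, had levels of 0.48, 0.41 and -0.65 on the marrow arrays, 0.39, 0.25 and -0.22 after G-CSF, -0.79, -0.56 and -0.59 after AMD3100 and 0.10, -0.17 and -0.80 after CWHM-823+tGro-b. Its G-CSF arrays stood within the range of the marrow arrays (0.06 ± 0.34, adjusted p = 0.917), and its AMD3100 arrays lay below all G-CSF arrays. Hoxa9, with the values above, differed from marrow by -0.86 ± 0.23 after G-CSF (adjusted p = 0.0958, 0.0164 with the block), -0.76 ± 0.23 after AMD3100 (adjusted p = 0.124, 0.025 with the block) and -0.68 ± 0.23 after CWHM-823+tGro-b (adjusted p = 0.539). Its second probe gave smaller differences, -0.42 ± 0.27, -0.64 ± 0.27 and -0.55 ± 0.27 in the same order (adjusted p over all probes 0.431, 0.266 and 1). Hoxa10, known from myeloid progenitors and the reproductive tract, had 0.61, 0.23 and -0.07 on the marrow arrays, -0.01, -0.83 and -0.28 after G-CSF, -0.42, -0.74 and -0.61 after AMD3100 and 0.31, -0.52 and -0.13 after CWHM-823+tGro-b. Its AMD3100 arrays lay below all marrow arrays (-0.85 ± 0.30, adjusted p = 0.166, 0.0255 with the block).

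With the slide as a block, which the paired layout allows, 9 Hox genes passed as lower than marrow after G-CSF (Hoxa3, Hoxa4, Hoxa5, Hoxa6, Hoxa9, Hoxa10, Hoxb3, Hoxd9 and Hoxd13), where 11.3% of all genes passed as lower. After AMD3100 6 passed as lower (Hoxa3, Hoxa4, Hoxa5, Hoxa9, Hoxa10 and Hoxb2, the last with AMD3100 signals not above background), where 7.67% of all genes did, and after CWHM-823+tGro-b Hoxa4 alone, where 0.314% did. Of these genes, Hoxa4, Hoxb2 and Hoxd13 entered the test through the marrow arrays alone, where they were high. Among the 16 Hox genes above background on all 12 arrays, 7 passed as lower after G-CSF, 4 after AMD3100 and 0 after CWHM-823+tGro-b. Among the 8 HoxA genes above background on all 12 arrays, 5 passed as lower in this fit after G-CSF, 4 after AMD3100 and 0 after CWHM-823+tGro-b. Their groups did not overlap marrow, on the lower side, for 4, 6 and 3 genes in the same order, where 13.7, 11.9 and 5.30% of all genes tested did so. Within slides, 7 of these 8 genes were lower after G-CSF than in marrow on all 3 slides, 6 after AMD3100 and 6 after CWHM-823+tGro-b. The share of all genes lower on all 3 slides was not computed. The median difference of all genes tested was -0.25 after G-CSF, 0.11 after AMD3100 and -0.05 after CWHM-823+tGro-b. The median difference of the 8 HoxA genes within a slide was -0.99, -1.02 and -0.36 after G-CSF on slides 1, 2 and 3, and -1.17, -0.97 and -0.39 after AMD3100. Slide 3, which holds the marrow array that stood apart in neutrophil transcripts, thus gave the smallest median for both. Without that marrow array, 2 Hox genes passed after G-CSF (Hoxa3 at -1.81, adjusted p = 0.0098, beside Hoxa4), 3 after AMD3100 and 1 after CWHM-823+tGro-b. The last was not Hoxa4, whose call after CWHM-823+tGro-b was lost in that limma fit (adjusted p = 0.0893).

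**Figure D3:**
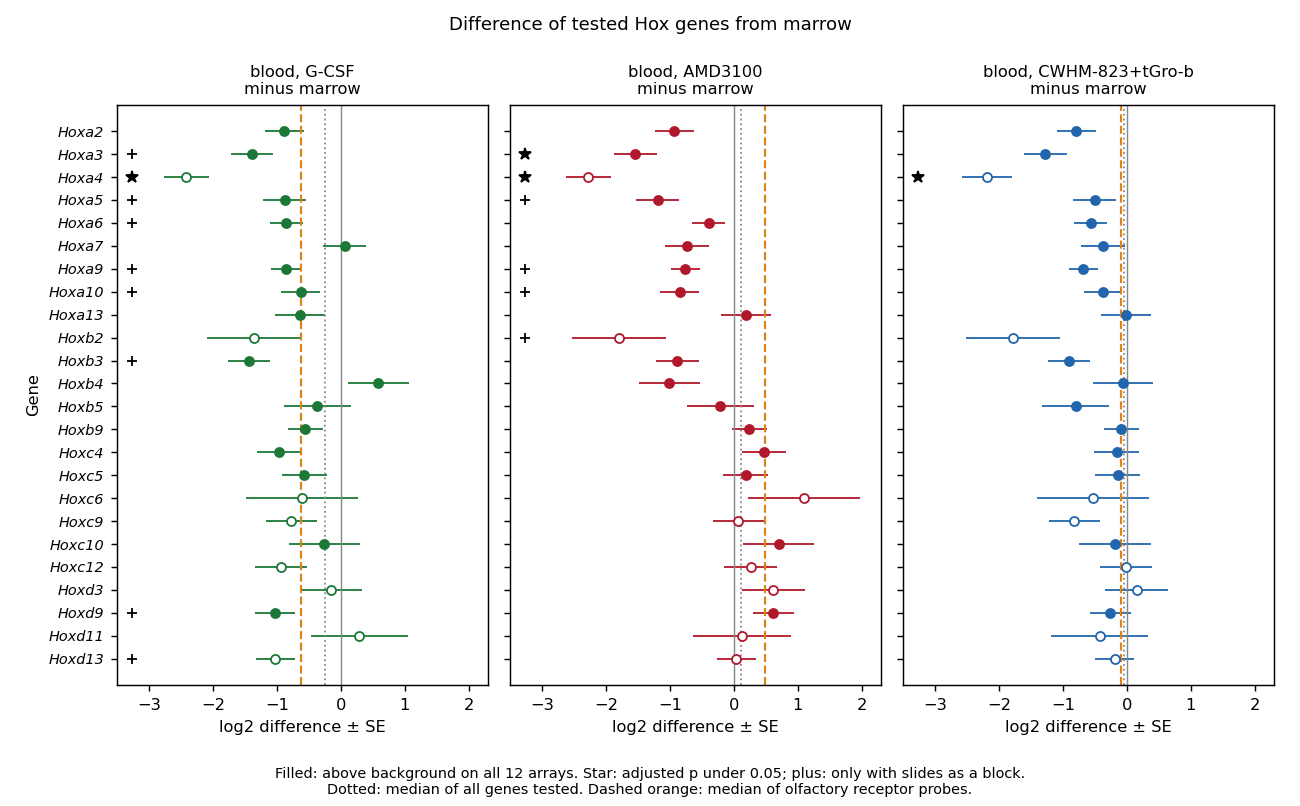
Difference from marrow (log2, with its standard error) of 24 of the 25 tested Hox genes in each blood group; filled points are genes above background on all 12 arrays, stars mark adjusted p under 0.05, plus signs a pass only with the slide as a block, and vertical lines the medians of all genes (dotted) and of the olfactory receptor probes (dashed). Stars stand at Hoxa4 in all 3 panels and at Hoxa3 in the AMD3100 panel.

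In the fit without the block 0 HoxB genes passed against marrow. Hoxb3, an anterior gene, had levels of 0.99, 0.19 and 0.49 on the marrow arrays, -0.91, -1.17 and -0.56 after G-CSF, -0.49, 0.37 and -0.86 after AMD3100 and -0.35, -0.43 and -0.27 after CWHM-823+tGro-b. Its G-CSF arrays lay below all marrow arrays (-1.44 ± 0.33, adjusted p = 0.0528, 0.0257 with the block). It also passed with normexp background correction (adjusted p = 0.0257), with probes above background on all 12 arrays (0.0344), with an intensity trend and robust prior (0.0258), with the mean of its probes (0.0124) and without AMD3100 array 2 (0.0266) or 3 (0.0469). A second Hoxb3 probe had -2.38, -3.02 and -3.33 on the marrow arrays, -4.50, -5.06 and -4.63 after G-CSF, -5.57, -5.53 and -3.93 after AMD3100 and -4.67, -4.33 and -3.69 after CWHM-823+tGro-b. This probe was above background on 3 marrow arrays, 0 after G-CSF, 0 after AMD3100 and 1 after CWHM-823+tGro-b. With the dim arrays set at the lowest signal above background, or at their own signal where that was higher, it was at least 2.85-fold lower than marrow after G-CSF and at least 1.66-fold lower after AMD3100 (adjusted p over all probes 0.0979 and 0.0676). The second probe was kept through the marrow arrays alone, where it was high, and its G-CSF signals were not above background. It therefore gives no separate support to the first probe, and neither does the mean of the probes, which includes it.

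Hoxb2 had levels of -2.69, -2.92 and -3.45 on the marrow arrays, -4.38, -3.40 and -5.35 after G-CSF, -3.90, -4.61 and -5.92 after AMD3100 and -3.30, -4.77 and -6.33 after CWHM-823+tGro-b. It was above background on all 3 marrow arrays and on 0 AMD3100 arrays, with a bound of at least 1.54-fold by the same rule (adjusted p = 0.219, 0.035 with the block). It entered the test through the marrow arrays alone, and these p-values use AMD3100 signals that are not above background. Hoxb4, known for expanding blood stem cells when it is forced on, had -1.18, -1.56 and -2.20 on the marrow arrays, -0.84, -1.29 and -1.05 after G-CSF, -1.53, -3.59 and -2.84 after AMD3100 and -1.43, -1.38 and -2.31 after CWHM-823+tGro-b. It differed from marrow by 0.59 ± 0.47 after G-CSF (adjusted p = 0.455), -1.01 ± 0.47 after AMD3100 (adjusted p = 0.28) and -0.06 ± 0.47 after CWHM-823+tGro-b (adjusted p = 1). Hoxb5, known as a marker of long-term stem cells in the mouse, had -1.15, -2.22 and -2.78 on the marrow arrays, -2.13, -3.38 and -1.75 after G-CSF, -1.93, -2.87 and -1.98 after AMD3100 and -2.36, -3.59 and -2.61 after CWHM-823+tGro-b. All groups of Hoxb5 overlapped marrow, and the differences ran from -0.80 to -0.21 with a standard error of 0.52. Hoxb9, the posterior HoxB gene seen on all arrays, had -0.70, -0.34 and -0.73 on the marrow arrays, -1.32, -0.78 and -1.32 after G-CSF, -0.18, -0.24 and -0.63 after AMD3100 and -0.99, -0.23 and -0.79 after CWHM-823+tGro-b. Its G-CSF arrays lay below all marrow arrays (-0.56 ± 0.27, adjusted p = 0.277).

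HoxC and HoxD genes are better known from trunk and limb than from blood stem cells, and none passed against marrow without the block. Hoxc4, a central gene, had -0.55, -0.13 and 0.04 on the marrow arrays, -1.06, -0.54 and -1.91 after G-CSF, 0.63, -0.18 and 0.33 after AMD3100 and -0.62, -0.16 and -0.35 after CWHM-823+tGro-b. Hoxc5, its neighbour, had -0.85, 0.01 and -0.44 on the marrow arrays, -1.59, -0.41 and -0.98 after G-CSF, -0.38, 0.09 and -0.43 after AMD3100 and -1.03, -0.24 and -0.43 after CWHM-823+tGro-b. Hoxc10, a posterior gene, had -2.55, -1.08 and -1.58 on the marrow arrays, -2.99, -0.94 and -2.04 after G-CSF, -1.51, -0.50 and -1.10 after AMD3100 and -2.80, -1.47 and -1.51 after CWHM-823+tGro-b. In all 3 genes the AMD3100 mean was the highest and the G-CSF mean the lowest of the 4 groups. Hoxd9, a posterior gene, had -0.38, -1.02 and -0.90 on the marrow arrays, -1.78, -1.80 and -1.81 after G-CSF, -0.54, 0.49 and -0.39 after AMD3100 and -1.21, -0.56 and -1.31 after CWHM-823+tGro-b. It followed the same order, with the 3 G-CSF arrays close together below all marrow arrays (-1.03 ± 0.32, adjusted p = 0.123, 0.0394 with the block). Of the genes above background in some groups only, Hoxd13 stood at -1.03 ± 0.30 after G-CSF (adjusted p = 0.115, 0.0249 with the block) and at 0.04 ± 0.30 after AMD3100 (adjusted p = 0.955). It entered the test through the marrow arrays alone, and was above background on 1 G-CSF array, 2 AMD3100 arrays and 2 CWHM-823+tGro-b arrays.

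After AMD3100 the HoxA genes and the HoxC and HoxD genes stood on opposite sides of marrow, and the HoxC and HoxD median lay near that of the olfactory receptor probes. For the 4 HoxC and HoxD genes above background on all 12 arrays, the median difference from marrow was -0.77 after G-CSF, 0.54 after AMD3100 and -0.17 after CWHM-823+tGro-b. The olfactory receptor probes had medians of -0.63, 0.49 and -0.10 and all genes tested -0.25, 0.11 and -0.05. For the 8 HoxA genes the medians were -0.86, -0.80 and -0.54. After AMD3100 all 4 HoxC and HoxD genes were above 0 and 7 of the 8 HoxA genes below 0, while 1005 of the 1169 olfactory receptor probes were above 0. The signs of the HoxA median and of the HoxC and HoxD median were the same with quantile normalization, normexp background correction and the authors' table, which moved the median of all genes to between -0.15 and -0.10 after G-CSF and to between 0.02 and 0.09 after AMD3100. The part of the background in the HoxC and HoxD differences was not tested.

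**Figure D4:**
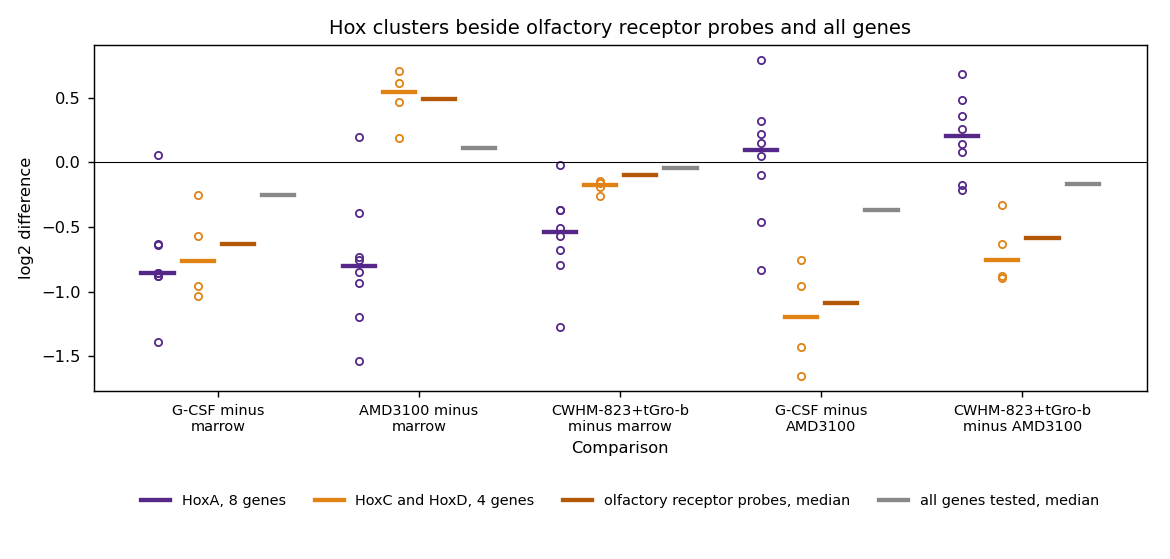
Log2 difference of the 8 HoxA and the 4 HoxC and HoxD genes above background on all 12 arrays (open circles, with a bar at the median) beside the medians of the olfactory receptor probes and of all genes tested, for 5 comparisons that share arrays. After AMD3100 the HoxA median is -0.80 and the HoxC and HoxD median 0.54, beside 0.49 for the olfactory receptor probes.

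The blood groups were then set against each other, with treatments that differ in time. Between G-CSF and AMD3100 blood, 6 of 25 Hox genes passed, which is 24.0%, where 31.0% of all genes tested passed, 12.6% as higher after G-CSF and 18.4% as lower. The members' share was thus no higher than that of all genes. Hoxb4 was higher after G-CSF by 1.60 ± 0.47, or 3.02-fold (adjusted p = 0.0294). The 3 G-CSF arrays lay above all AMD3100 arrays, and Hoxb4 was higher on all 3 slides. Hoxd9 (-1.65 ± 0.32, adjusted p = 0.00878) and Hoxc4 (-1.43 ± 0.35, adjusted p = 0.0165) were lower after G-CSF, both with no overlap of arrays. Hoxb9 (-0.79 ± 0.27, adjusted p = 0.0463), Hoxc12 (-1.20 ± 0.41, adjusted p = 0.0453) and Hoxd13 (-1.07 ± 0.30, adjusted p = 0.0261) were also lower after G-CSF. Hoxc12 levels were -3.07, -2.41 and -3.10 on the marrow arrays, -3.68, -2.94 and -4.76 after G-CSF, -2.33, -2.46 and -2.99 after AMD3100 and -3.15, -2.59 and -2.89 after CWHM-823+tGro-b. Hoxd13 levels were -3.99, -3.31 and -3.14 on the marrow arrays, -4.79, -4.46 and -4.27 after G-CSF, -3.33, -3.51 and -3.48 after AMD3100 and -3.86, -4.03 and -3.13 after CWHM-823+tGro-b. Hoxc12 was above background on 2 G-CSF and 3 AMD3100 arrays, and Hoxd13 on 1 and 2, so the size of these differences is uncertain. The G-CSF and AMD3100 arrays of Hoxc12 overlapped while those of Hoxd13 did not.

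**Figure D5:**
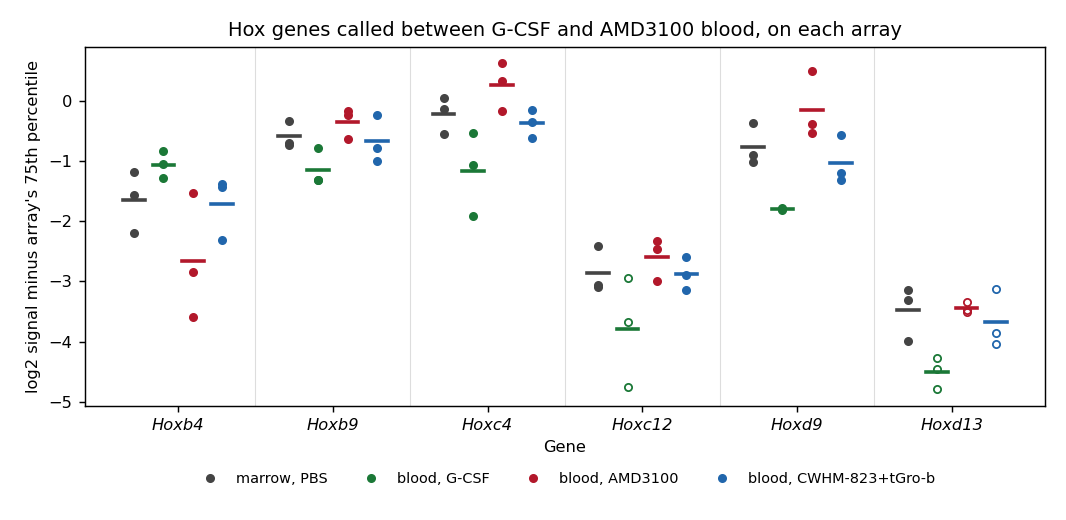
Level (log2 signal minus the array's 75th percentile) on each array of the 6 Hox genes that passed between G-CSF and AMD3100 blood, with a bar at the group mean; open circles mark groups in which not all 3 arrays were above background. Hoxb4 is higher on the G-CSF arrays than on the AMD3100 arrays, and the mean of the other 5 genes is lower.

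The calls between G-CSF and AMD3100 depended on the scaling. With quantile normalization 1 Hox gene passed as higher after G-CSF and 2 as lower, against 1 and 5 here, and the calls of Hoxb9, Hoxc12 and Hoxd13 were lost (adjusted p = 0.0758, 0.147 and 0.471). Over all genes, 40.7% of the calls were higher after G-CSF with the 75th percentile and 55.9% with quantile normalization. The median difference of the olfactory receptor probes was -1.09, that of the 4 HoxC and HoxD genes -1.20 and that of the 8 HoxA genes 0.10, against -0.37 for all genes. With the slide as a block 2 Hox genes were higher after G-CSF (Hoxb4 and Hoxa7) and 9 lower (Hoxa13, Hoxb9, Hoxc4, Hoxc5, Hoxc9, Hoxc10, Hoxc12, Hoxd9 and Hoxd13), where 62.7% of all genes passed. Hoxa7 differed by 0.79 ± 0.34 (adjusted p = 0.0881, 0.0186 with the block). The count was 1 without G-CSF array 1 or 3, 2 without AMD3100 array 1 or 2 and 11 without G-CSF array 2.

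No Hox gene passed between G-CSF and CWHM-823+tGro-b blood in limma, with or without the block (0.619% of all genes passed without it and 2.19% with it), and none between CWHM-823+tGro-b and AMD3100 blood without it (0.146%). At an unadjusted p under 0.05 (limma) there were 4 of 25 Hox genes in the first comparison and 2 in the second. The share of all genes at that threshold was not computed, so nothing is drawn from these counts. The difference closest to passing in the first was Hoxd13, at -0.83 ± 0.30 (adjusted p = 0.385). With the block, Hoxc9 (-0.89 ± 0.25, adjusted p = 0.0438) and Hoxc10 (-0.89 ± 0.23, adjusted p = 0.0377) were lower after CWHM-823+tGro-b than after AMD3100, where 16.9% of all genes passed and 8.44% as lower. Hoxc9 levels were -2.59, -2.19 and -2.57 on the marrow arrays, -3.65, -3.12 and -2.90 after G-CSF, -2.88, -1.66 and -2.61 after AMD3100 and -4.04, -2.65 and -3.14 after CWHM-823+tGro-b, above background on 3 AMD3100 arrays and 2 CWHM-823+tGro-b arrays. Hoxa4 differed between the blood groups by -0.23 to 0.08 and Hoxa3 by -0.11 to 0.26. A difference between blood groups was thus not detected for either gene, with standard errors of 0.33 to 0.39.

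How much of each gene's spread went with the treatment group and how much with the slide was computed for the 16 genes above background on all 12 arrays. The group share was larger for 12 genes, among them 7 of the 8 HoxA genes. The arrays fall into more groups than slides, so random spread alone tends to give the group the larger share. The shares were not adjusted for this and were not computed for all genes, so nothing is drawn from these counts. The group share was 78.9% for Hoxa9, 78.1% for Hoxd9 and 76.7% for Hoxa3. The slide share was larger for Hoxa13 (51.4%), Hoxb5 (49.4%), Hoxc5 (54.4%) and Hoxc10 (66.0%).

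Regulators of the Hox clusters were read from 3 lists. Of the TALE cofactors, the Pbx, Meis and related proteins that bind DNA with Hox proteins, 9 of 11 were tested, and 1 passed against marrow: Pbx3 was lower after AMD3100 (-2.11 ± 0.37, adjusted p = 0.0182). Its levels were -0.83, -0.96 and -0.89 on the marrow arrays, -0.45, -0.50 and -1.49 after G-CSF, -2.44, -3.72 and -2.86 after AMD3100 and -1.19, -1.67 and -1.84 after CWHM-823+tGro-b. The AMD3100 arrays lay below all others, and Pbx3 was higher after G-CSF than after AMD3100 by 2.19 ± 0.37 (adjusted p = 0.00601). Meis1, a cofactor of Hoxa9, had 3.68, 3.37 and 3.02 on the marrow arrays, 3.24, 2.85 and 2.67 after G-CSF, 3.02, 2.45 and 2.70 after AMD3100 and 3.44, 3.04 and 3.28 after CWHM-823+tGro-b, and differed by -0.63 ± 0.26 after AMD3100 (adjusted p = 0.229, 0.0394 with the block). Over all genes 0.908% passed as lower after AMD3100 than in marrow, and 12.6% as higher after G-CSF than after AMD3100. With the block 3 cofactors passed as lower after AMD3100 and 0 after G-CSF or CWHM-823+tGro-b, and between G-CSF and AMD3100 blood 3 were higher after G-CSF and 2 lower. In that fit 7.67% of all genes passed as lower after AMD3100. Between G-CSF and AMD3100 blood 5499 of 23900 passed as higher and 9486 as lower.

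Of the 22 activators, such as MLL complex members and Cdx factors, 21 were tested. Mllt3, a partner of MLL known from stem cell maintenance, was lower after G-CSF (-0.95 ± 0.21, adjusted p = 0.0418) and after AMD3100 (-1.04 ± 0.21, adjusted p = 0.0336), and was the 1 activator that passed in each; 0 passed after CWHM-823+tGro-b. Over all genes 0.556% passed as lower after G-CSF and 0.908% after AMD3100. With the block, 3 activators passed as higher and 1 as lower after G-CSF, and 1 as higher and 6 as lower after AMD3100. In that fit 1960 of all 23900 genes passed as higher and 2696 (11.3%) as lower after G-CSF. After AMD3100 1387 passed as higher and 1834 (7.67%) as lower. Mllt3 levels were 0.04, 0.09 and -0.16 on the marrow arrays, -0.95, -0.95 and -0.99 after G-CSF, -1.27, -0.88 and -0.997 after AMD3100 and -0.38, -0.55 and -0.27 after CWHM-823+tGro-b. Of the 24 Polycomb genes 23 were tested, and 2 passed as lower after AMD3100: Cbx7, a reader of the Polycomb mark, and Asxl1 (-1.42 ± 0.25, adjusted p = 0.0215). Cbx7 was above background on 3 marrow and 0 AMD3100 arrays, so it was at least 3.28-fold lower (adjusted p = 0.0167). In limma without the block 0 passed after G-CSF or CWHM-823+tGro-b. With it 6 passed as lower after AMD3100, 1 as higher after G-CSF and 0 after CWHM-823+tGro-b, beside the counts over all genes given for the activators. Ezh2, the methyltransferase that writes that mark, was at -0.85 ± 0.26 after AMD3100 (adjusted p = 0.123, 0.0218 with the block). Between G-CSF and AMD3100 blood, 9 activators (Kmt2b, Ash2l, Wdr5, Dpy30, Mllt1, Aff1, Aff4, Brpf1 and Cdx4) and 6 Polycomb genes (Ezh2, Eed, Rnf2, Cbx7, Phc2 and Asxl1) passed as higher after G-CSF and 0 of either as lower, where 12.6% of all genes passed as higher. Cbx7 was above background on 0 AMD3100 arrays and Cdx4 on 1. Cdx4 entered the test through the G-CSF arrays alone, where it was high, and that entry favours a call as higher after G-CSF. With the block 13 activators passed as higher and 2 as lower, and 14 Polycomb genes as higher and 0 as lower, where 62.7% of all genes passed in either direction. The list medians were 0.91 for the activators and 0.53 for the Polycomb genes, against -0.37 for all genes.

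Some stem cell genes other than Hox were also lower after AMD3100. Of 11 LSK and stem cell genes 3 passed as lower, where 0.908% of all genes did. These were Slamf1, which encodes CD150 (at least 3.79-fold, above background on 0 AMD3100 arrays, adjusted p = 0.0119), Hlf (-1.31 ± 0.23, adjusted p = 0.0182) and Mecom (-1.32 ± 0.26, adjusted p = 0.0334). Hlf and Mecom are both transcription factors of stem cells. After G-CSF Hlf was lower (-1.19 ± 0.23, adjusted p = 0.0222) and Ly6a, which encodes Sca-1, higher (1.65 ± 0.33, adjusted p = 0.0308), and after CWHM-823+tGro-b 0 of 11 passed. Over all genes 0.556% passed as lower and 1.18% as higher after G-CSF. With the block 7 passed as lower after AMD3100, and 2 as higher and 4 as lower after G-CSF. In that fit 7.67% of all genes passed as lower after AMD3100. After G-CSF 11.3% passed as lower and 1960 of 23900 as higher. Between G-CSF and AMD3100 blood Ly6a, Cd34, Slamf1, Procr and Gata2 were higher after G-CSF and Flt3 lower. In that comparison 12.6% of all genes passed as higher and 18.4% as lower. Hlf levels were 2.69, 2.33 and 1.97 on the marrow arrays, 1.26, 1.14 and 1.04 after G-CSF, 1.02, 1.08 and 0.96 after AMD3100 and 1.89, 1.80 and 1.74 after CWHM-823+tGro-b. As for Hoxa9, the 9 blood arrays of Hlf lay below all marrow arrays. The summed level of the 11 genes was 44.6 to 59.8 times the 75th percentile signal in marrow, 35.4 to 45.2 after G-CSF, 28.7 to 38.3 after AMD3100 and 37.6 to 53.5 after CWHM-823+tGro-b. The part of the makeup of the sorted cells in the Hox differences was not tested.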

How the data were processed

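Cy5 intensity was read from 12 Agilent arrays, 3 per group; per the file headers the authors used Feature Extraction 11.5.1.1 and the mm9 design, whose processed signal is background-subtracted. Per the labels' protocols, RNA was amplified as cDNA before labelling. The deposited intensity was put on the log2 scale and each array was centred on its 75th percentile, without outlier spots. A probe was kept if every array of any 1 group had it well above background, the probe with the highest mean stood for a gene, and 23900 genes were tested with limma 3.58.1 (R 4.3.3) in 1 fit over all groups, with Benjamini-Hochberg adjustment over all of them and a threshold of 0.05. The test was checked on simulated data. The authors' deposited table of linear intensity (29 Hox probes) was an alternative; its scaling is not given in the sources used here, and it correlated with the processed signal at 0.998 to 1 per array.

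Slide and replicate number coincide: each slide held 1 array of each group. Same-numbered arrays deviated together in 18 of 18 pairs (r = 0.26 to 0.616; median of 36 other pairs -0.24), so the numbers pair the samples, and values with slides as a block are given where a call of a Hox gene, or a count of regulators or stem cell genes, changes. Hox members, gene lists and tests were chosen with earlier results of these data known. Array values are given for every Hox gene above background on all 12 arrays, called in any of 7 comparisons, or above background on all arrays of 1 group and none of another. From the other lists, genes that passed without the block were named, with up to 4 more of smallest p. All 44 probes matched their gene's symbol in the RefSeq table (GRCm38.p6), which was used for names only; coordinates are those of the scanner output. The results of a few genes and sequences are not reported here.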

Additional observations from a re-analysis of the deposited data

Results flagged for a closer look

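For 6 Hox genes the effects of G-CSF and AMD3100, each against the same marrow arrays, differed by the test of the difference itself. Hoxb4 was higher after G-CSF than after AMD3100 by 1.60 on the log2 scale. The other 5 were lower after G-CSF, with differences of -0.79 for Hoxb9, -1.43 for Hoxc4, -1.20 for Hoxc12, -1.65 for Hoxd9 and -1.07 for Hoxd13. The 6 are 24.0% of the 25 tested members, where 31.0% of all genes tested differed. The Hoxd9 call held when any 1 of the 12 arrays was left out (adjusted p = 0.00986 to 0.0399). Of the 12 fits that left out 1 array, the call was lost in 4 for Hoxb4, 8 for Hoxb9, 3 for Hoxc4, 10 for Hoxc12 and 4 for Hoxd13. With quantile normalization the calls of Hoxb9, Hoxc12 and Hoxd13 were lost (adjusted p = 0.0758, 0.147 and 0.471).

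Hoxa11os, a non-coding gene antisense to Hoxa11 and no member of the Hox list, had a signal above the marrow control after AMD3100, by 0.58 ± 0.26 (adjusted p = 0.253, limma), and did not pass the test. In the same comparison the olfactory receptor probes had a median difference of 0.49, with 1005 of 1169 above 0. The part of that background in the Hoxa11os difference was not tested.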

How the results depend on the processing

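The count of Hox genes called against marrow after G-CSF was 1. It became 9 with the replicate block, 4 with the block and quantile normalization, 2 with normexp, with probes above background on all 12 arrays, with an intensity trend and robust prior or with the mean of a gene's probes, and 0 in the authors' table or with probes measured on all 12 arrays, which drops Hoxa4. After AMD3100 the count of 2 became 6 with the block, 7 with the block and quantile normalization, 3 with quantile normalization (Hoxa5 gained, adjusted p = 0.0496), all probes kept or averaged by gene, 0 with normexp, and 1 in the authors' table, with no filter, with either all-12-array filter or with only the groups compared. After CWHM-823+tGro-b the count of 1 became 0 with quantile normalization, normexp, the authors' table, no filter, either all-12-array filter, the trend and robust prior or only the groups compared. For the mean of the blood groups, 2 became 3 with normexp, the block, all probes kept or averaged by gene, 1 with quantile normalization, no filter or either all-12-array filter, and 0 in the authors' table. Between G-CSF and AMD3100, 6 became 11 with the block, 8 with the block and quantile normalization, 9 with no filter (which lost Hoxb9 and Hoxc12), 7 with all probes kept or averaged by gene (which gained Hoxa13, adjusted p = 0.0338 and 0.027), 4 with the trend and robust prior (which lost Hoxc12 and Hoxd13) or probes above background on all 12 arrays, and 3 with quantile normalization, normexp, the authors' table or only the groups compared. Between CWHM-823+tGro-b and AMD3100, 0 became 2 with the block and 1 with the block and quantile normalization. Leaving out 1 array in turn gave 1 to 2, 0 to 3, 0 to 1, 1 to 2 and 1 to 11 calls in the first 5 comparisons in this order, and 0 to 0 in both others.

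Without marrow array 3 the count after G-CSF was 2 and after AMD3100 3; without marrow array 1, marrow array 2 or AMD3100 array 1 the count after AMD3100 was 0. Counting a gene above background on any array gave 28 genes after G-CSF and 29 after CWHM-823+tGro-b, and the olfactory receptor level gave 5, 3, 2 and 3 genes in marrow, G-CSF, AMD3100 and CWHM-823+tGro-b. Over all genes, calls between G-CSF and marrow were 282 higher and 133 lower, and 283 and 71 with quantile normalization. With the block Hoxa9 also passed for the mean of the blood groups (adjusted p = 0.0233, limma); beyond the Hox calls named here and in the comparisons, the block changed no Hox call. The alternatives for probes measured on all 12 arrays, the block with quantile normalization and the olfactory receptor level were chosen after seeing the data. No named gene reversed in any alternative; the cause of each lost call was not tested. Signal over background limits Hoxa4, Hoxb2, Hoxc12 and Hoxd13, which lie near it in blood.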
